A study of Mus musculus with 8 samples.

Results

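The genes described here are 10 genes that mark mast cells, measured in chondrocyte preparations from the ribs of mouse embryos. They are Cpa3, Cma1, Mcpt4, Tpsb2, Tpsab1, Hdc, Kit, Ms4a2, Fcer1a and Gata2, named by symbol, and every probe set that the platform annotation assigns to exactly 1 of these symbols was taken. This gave 15 probe sets for all 10 genes, out of 45037 probe sets on the array; 5 genes had 2 probe sets each and 5 had 1. On 8 arrays, 4 samples from Hoxc8 transgenic FVB embryos and 4 from FVB embryos labelled wild type and used as controls were measured at E18.5. Embryos of 4 litters were grouped by genotype, so that each litter gave 1 transgenic and 1 control sample; the litters are called Mouse_168, Mouse_170, Mouse_173 and Mouse_174 after the sample names. Rib cages were digested with collagenase and trypsin, and the cells that passed a strainer were used; the labels name no step that sorts cell types. The labels give neither the promoter of the transgene nor the number and sexes of embryos in a sample.

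Mast cells are resident immune cells of connective tissue that derive from blood progenitors. Their granules hold histamine and large amounts of proteases bound to the proteoglycan serglycin, and these are released when IgE on the high-affinity receptor meets antigen. Survival and growth of the cells depend on Kit, the receptor of stem cell factor. In late embryos mast cells are found in the skin and in other connective tissue.

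Windows around the start sites of 3 granule genes are shown first. Cpa3 and Cma1 are shown because they were called between litters, and Hdc because with its brighter probe set both samples of litter Mouse_173 were above the other 6, although it was not called. Gata2, a factor that binds GATA sites in mast cells, is itself among the genes measured. Windows run from 250 bases before to 50 bases after a gene's start in RefSeq, build GRCm38.p6, and 8 of the 10 genes had one; Tpsb2 and Tpsab1 had none. Capitals mark the letters GATAA or, on the other strand, TTATC. Below are Cpa3 at chr3:20242132-20242431 (minus strand), Cma1 at chr14:55944626-55944925 (minus strand) and Hdc at chr2:126618629-126618928 (minus strand).
Cpa3: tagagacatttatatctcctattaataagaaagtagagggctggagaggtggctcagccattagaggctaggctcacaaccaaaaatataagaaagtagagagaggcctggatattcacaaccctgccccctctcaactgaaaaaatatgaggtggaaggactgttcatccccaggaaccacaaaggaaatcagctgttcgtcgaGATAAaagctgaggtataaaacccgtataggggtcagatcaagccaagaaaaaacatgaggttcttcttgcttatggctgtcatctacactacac
Cma1: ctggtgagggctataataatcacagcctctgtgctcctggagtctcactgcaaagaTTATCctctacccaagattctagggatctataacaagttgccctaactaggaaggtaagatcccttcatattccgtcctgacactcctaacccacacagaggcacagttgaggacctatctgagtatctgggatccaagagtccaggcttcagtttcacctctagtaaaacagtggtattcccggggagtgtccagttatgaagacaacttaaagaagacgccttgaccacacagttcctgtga
Hdc: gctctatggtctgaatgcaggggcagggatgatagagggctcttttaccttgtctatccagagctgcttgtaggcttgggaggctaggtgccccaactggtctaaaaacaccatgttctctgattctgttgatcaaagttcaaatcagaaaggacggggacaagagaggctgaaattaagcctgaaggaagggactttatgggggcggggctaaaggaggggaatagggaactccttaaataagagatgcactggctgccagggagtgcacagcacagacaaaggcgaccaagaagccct
In Cpa3 the match begins 45 bases before the start and in Cma1 194 bases before it, and the Hdc window holds no match. Matches were also found in the windows of Mcpt4, Ms4a2 and Fcer1a, which makes 5 of the 8 genes and 5 of their 10 windows, while 25.41% of all 32851 windows in the table hold one. The letters CATGTG or, on the other strand, CACATG, the form of E-box that the mast cell factor Mitf can bind, were found only in the Fcer1a window, against 14.15% of all windows. These matches describe sequence and are not evidence of binding.

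Signals are MAS5 intensities on a linear scale. Differences were fitted on log2(signal + 22.2), which understates the change of dim genes, and a positive difference means higher in the group named first. All arrays were scaled to the same trimmed mean before deposit, and their median signals lay between 107 and 121. Cartilage genes were bright in every sample, with a mean signal of 44130 for Col2a1, the main collagen of cartilage, and 47489 for Col9a1, the markers of the labelled cell type. Hoxc8 itself lay between 3400 and 4235 in transgenic samples, against 3066 to 4112 in control samples, and these ranges overlap (0.15 log2, limma adjusted p = 0.9999), so the signal of this gene does not check the genotype labels. The mast cell genes were far dimmer. Probe sets were tested where their mean signal reached 110, the median over the array. Of the 15 mast cell probe sets, 4 passed, namely Cpa3, Cma1, Tpsab1 and one of the 2 for Gata2, and 11 did not.

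Litter Mouse_173 stood apart in some of the granule protease genes. Both of its samples were higher for Cpa3 and Cma1, by 4.52-fold and 2.89-fold on the fitted scale. Tpsab1 was higher there by 2.7-fold, but it passed the signal filter only through that litter. The genotypes within that litter were close to each other. The signals of the brightest probe set of each of the 10 genes, summed, came to 2034 in the transgenic and 2005 in the control sample of litter Mouse_173. In litter Mouse_174 the sums were 918 and 916, in litter Mouse_168 they were 752 and 733, and in litter Mouse_170 they were 517 and 668, again with the transgenic sample first. The ranges of the 4 litters did not overlap, and the sums of the genotypes lay farthest apart in litter Mouse_170. There Gata2 gave 153 in the transgenic and 282 in the control sample, while Cpa3 went the other way, at 106 and 13.8. Gata2 was also lower in the transgenic samples of litters Mouse_168 and Mouse_174. Close sums of 2 genotypes therefore do not mean that each gene was close. In litter Mouse_173 most of the sum came from Cpa3, Cma1, Tpsab1 and Tpsb2, so it does not speak for all 10 genes. For Gata2, Kit, Ms4a2, Fcer1a and Mcpt4 its samples did not both lie above all others. In samples of many cells, a difference in the number of mast cells and one in these RNAs per cell cannot be told apart.

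**Figure D1:**
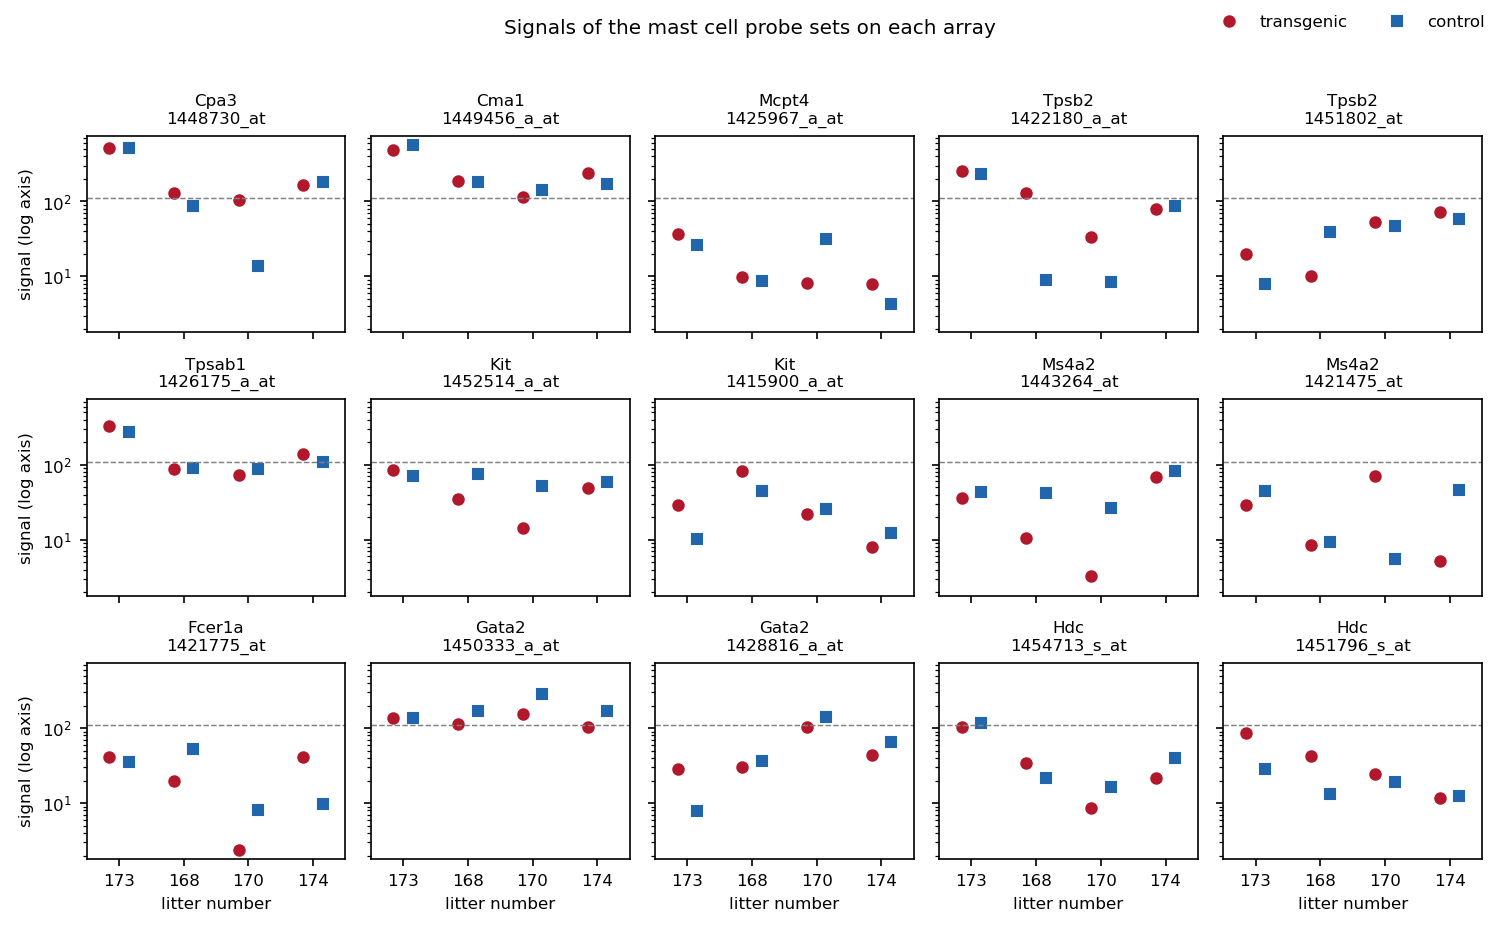
Signal of each mast cell probe set on each of the 8 arrays (log axis), by litter number, with transgenic samples as red circles left of control samples as blue squares. The dashed line is the filter signal of 110. For Cpa3, Cma1, Tpsab1, Tpsb2 (1422180_a_at) and Hdc (1454713_s_at) both samples of litter Mouse_173 lie above the other 6.

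Cpa3 encodes carboxypeptidase A3, a granule protease that is abundant in mast cells. Its signal was 520.0 in the transgenic and 510.4 in the control sample of litter Mouse_173, against 129 and 85.9 in litter Mouse_168, 106 and 13.8 in litter Mouse_170, and 164 and 180.0 in litter Mouse_174. The order of the litters was Mouse_173, Mouse_174, Mouse_168 and Mouse_170; the ranges of neighbours overlapped in the last pair alone. The difference between litter Mouse_173 and the mean of the other litters was 2.18 log2 (SE 0.33), or 4.52-fold (limma, adjusted p = 0.00739). Litter Mouse_170 was lower by -1.81 log2 (SE 0.33, limma adjusted p = 0.00888) than the mean of the other litters, which includes the high Mouse_173. Its control sample was the lowest of all 8.

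Cma1 encodes a mast cell protease of the chymase family. In litter Mouse_173 it stood at 493 in the transgenic and 566 in the control sample, against 185 and 179 in litter Mouse_168, 115 and 141 in litter Mouse_170, and 243 and 173.2 in litter Mouse_174. Litters Mouse_168 and Mouse_174 overlapped, while Mouse_173 lay above and Mouse_170 below every other sample. Litter Mouse_173 was higher by 1.53 log2 (SE 0.19), or 2.89-fold (limma, adjusted p = 0.00329). Litter Mouse_170 was lower by -0.98 log2 (SE 0.19, limma adjusted p = 0.0134) than a mean that includes the high Mouse_173.

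Tpsab1 and Tpsb2 are neighbouring tryptase genes on chromosome 17 with closely similar sequences, so their probe sets may pick up RNA of both. RefSeq lists Tpsab1 as a transcribed pseudogene in its C57BL/6J reference, while the embryos here were FVB. Tpsab1 gave 326 in the transgenic and 272 in the control sample of litter Mouse_173, against 87.4 and 91.3 in litter Mouse_168, 73.3 and 87.1 in litter Mouse_170, and 139 and 109.6 in litter Mouse_174. Litter Mouse_174 lay between litter Mouse_173 and the other litters, and litters Mouse_168 and Mouse_170 nearly touched. Litter Mouse_173 was higher by 1.43 log2 (SE 0.24), or 2.7-fold (limma, adjusted p = 0.0115). Without litter Mouse_170 this contrast was not called (adjusted p = 0.0530). The mean of Tpsab1 outside litter Mouse_173 was 97.9, under the filter signal, so it entered the test only through litter Mouse_173.

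Tpsb2 had 2 probe sets that went opposite ways. The brighter one, 1422180_a_at, gave 257 in the transgenic and 232 in the control sample of litter Mouse_173, against 128 and 8.95 in litter Mouse_168, 33.8 and 8.38 in litter Mouse_170, and 78.5 and 87.0 in litter Mouse_174. Both samples of litter Mouse_173 were above the other 6, and in litters Mouse_168 and Mouse_170 the transgenic sample was well above its control. With a mean of 104 this probe set fell just under the filter; fitted without one, its difference for litter Mouse_173 was 2.0 log2 (SE 0.46) and was not called (limma, adjusted p = 0.0976). The dimmer one, 1451802_at, gave 19.99 and 7.83 in litter Mouse_173, 10.1 and 38.9 in litter Mouse_168, 52.8 and 46.9 in litter Mouse_170 and 72.0 and 58.1 in litter Mouse_174, transgenic first. Litter Mouse_173 was not raised there.

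Mcpt4 encodes the main chymase of connective tissue mast cells in mice and lies in the same protease cluster on chromosome 14 as Cma1. It was dim throughout, at 36.9 in the transgenic and 25.9 in the control sample of litter Mouse_173, against 9.94 and 8.66 in litter Mouse_168, 8.19 and 31.8 in litter Mouse_170, and 7.84 and 4.28 in litter Mouse_174. The control sample of litter Mouse_170 lay inside the range of litter Mouse_173. Its mean of 16.7 stood at percentile 10.9 of all probe sets.

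Hdc, which makes histamine from histidine, was under the filter in both probe sets. These carry the suffix that Affymetrix gives to probe sets shared between similar transcripts. The brighter, 1454713_s_at, gave 103 in the transgenic and 116 in the control sample of litter Mouse_173, against 34.5 and 21.4 in litter Mouse_168, 8.72 and 16.3 in litter Mouse_170, and 21.6 and 40.2 in litter Mouse_174. Both samples of litter Mouse_173 were again above the other 6; fitted without the filter the difference was 1.55 log2 (SE 0.35), not called (limma, adjusted p = 0.0953). For 1451796_s_at the transgenic sample of litter Mouse_173 was the highest at 87.3, its control at 28.8 lay under the transgenic sample of litter Mouse_168 at 42.0, and the other samples lay between 11.7 and 24.9.

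Among the receptor genes no litter difference was called, and every probe set was under the filter. Kit gave 85.8 in the transgenic and 70.2 in the control sample of litter Mouse_173 with its brighter probe set, 1452514_a_at, against 35.2 and 74.4 in litter Mouse_168, 14.2 and 52.2 in litter Mouse_170, and 48.5 and 59.7 in litter Mouse_174. The litter means of this probe set were highest in Mouse_173, at 78.0, and lowest in Mouse_170, at 33.2, but litter Mouse_173 overlapped litter Mouse_168 (0.59 log2, limma without the filter, adjusted p = 0.617). The other Kit probe set was highest in litter Mouse_168, at 82.8 in the transgenic and 44.6 in the control sample. Kit is also carried by melanocytes and blood progenitors. Fcer1a, the IgE-binding chain of the high-affinity receptor, gave 41.2 in the transgenic and 34.9 in the control sample of litter Mouse_173, against 19.9 and 52.9 in litter Mouse_168, 2.36 and 8.22 in litter Mouse_170, and 41.3 and 9.76 in litter Mouse_174. Its litter means were also highest in Mouse_173, at 38.1, and lowest in Mouse_170, at 5.29, with Mouse_168 close behind the first at 36.4 (0.55 log2, limma without the filter, adjusted p = 0.659). Ms4a2, the beta chain of the same receptor, ranged from 3.26 to 81.8 over its 2 probe sets, with no common order of the litters. The means of these 5 probe sets stood between percentiles 19.1 and 35.8 of all probe sets.

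Gata2 encodes a transcription factor of mast cells, blood progenitors and endothelium. Its brighter probe set, 1450333_a_at, gave 135 in both samples of litter Mouse_173, against 113 in the transgenic and 168.1 in the control sample of litter Mouse_168, 153 and 282 in litter Mouse_170, and 104 and 171 in litter Mouse_174. No difference between litters was called (limma F-test, adjusted p = 0.366). The dimmer one, 1428816_a_at, gave 28.5 and 7.84 in litter Mouse_173, 30.6 and 36.9 in litter Mouse_168, 105 and 141 in litter Mouse_170 and 43.3 and 66.5 in litter Mouse_174, transgenic first, so that litter Mouse_173 was below the other 6 samples.

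The test across litters asked whether the 4 litters differ with genotype in the model. Each litter was then set against the mean of the other litters. The 10 genes were chosen with earlier results of these data known, so the shares given beside them are description and not independent support. By limma's moderated F-test the 3 proteases Cpa3, Cma1 and Tpsab1 were called (adjusted p = 0.00534, 0.00314 and 0.0132) among 22519 probe sets tested, of which 9% were called. Litter Mouse_173 was called higher for the same 3, while 1.45% of tested probe sets were called higher there. Tpsab1 passed the filter only through that litter and so had to differ, which leaves Cpa3 and Cma1 as the calls to read beside these shares. No mast cell probe set was called lower in litter Mouse_173, against 1.34%. Litter Mouse_170 was lower for Cpa3 and Cma1, against 2.36% of tested probe sets, and higher for none, against 3.62%. The mean it was set against includes the raised litter Mouse_173. Its calls for Cpa3 and Cma1 are therefore not independent of those of litter Mouse_173. In litter Mouse_174 none was called, against 3.27% higher and 5.56% lower, and in litter Mouse_168 0% of all tested probe sets were called. Since the filter uses the signals themselves, these counts describe the probe sets that passed. Fitted without it, the F-test called 2 of the 15, against 2.21% of all probe sets, 8 had an unadjusted p under 0.05, against 16.6%, and the same 3 proteases were called higher in litter Mouse_173, against 0.28%. Without regard to the filter, both samples of litter Mouse_173 lay above the other 6 for 5 of the 15 probe sets and 5 of the 10 genes, against 5.2% of all probe sets and 7.49% of those tested; they lay below for 1 probe set, against 6.31%. The fitted difference for litter Mouse_173 was positive for 11 of the 15, with a median of 0.59 log2, and for 46.3% of all 45037 probe sets, with a median of -0.03 log2. The calls in the contrast of litter Mouse_173 rest on its pair of samples and did not hold when either was left out. Without its transgenic sample the differences were 2.53 log2 for Cpa3, 1.66 for Cma1 and 1.32 for Tpsab1. Without its control sample they were 1.82, 1.39 and 1.55, in the same order. With both left out the limma F-test gave adjusted p = 0.143 for Cpa3, 0.365 for Cma1 and 0.603 for Tpsab1. Without an intensity trend in the variance, the F-test called 0 probe sets in all, 21.8% having an unadjusted p under 0.05 where 27.7% had one with the trend (limma, adjusted p between 0.0865 and 0.12 for the 3 genes), and without the filter Tpsab1 missed the F-test threshold (adjusted p = 0.0564).

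**Figure D2:**
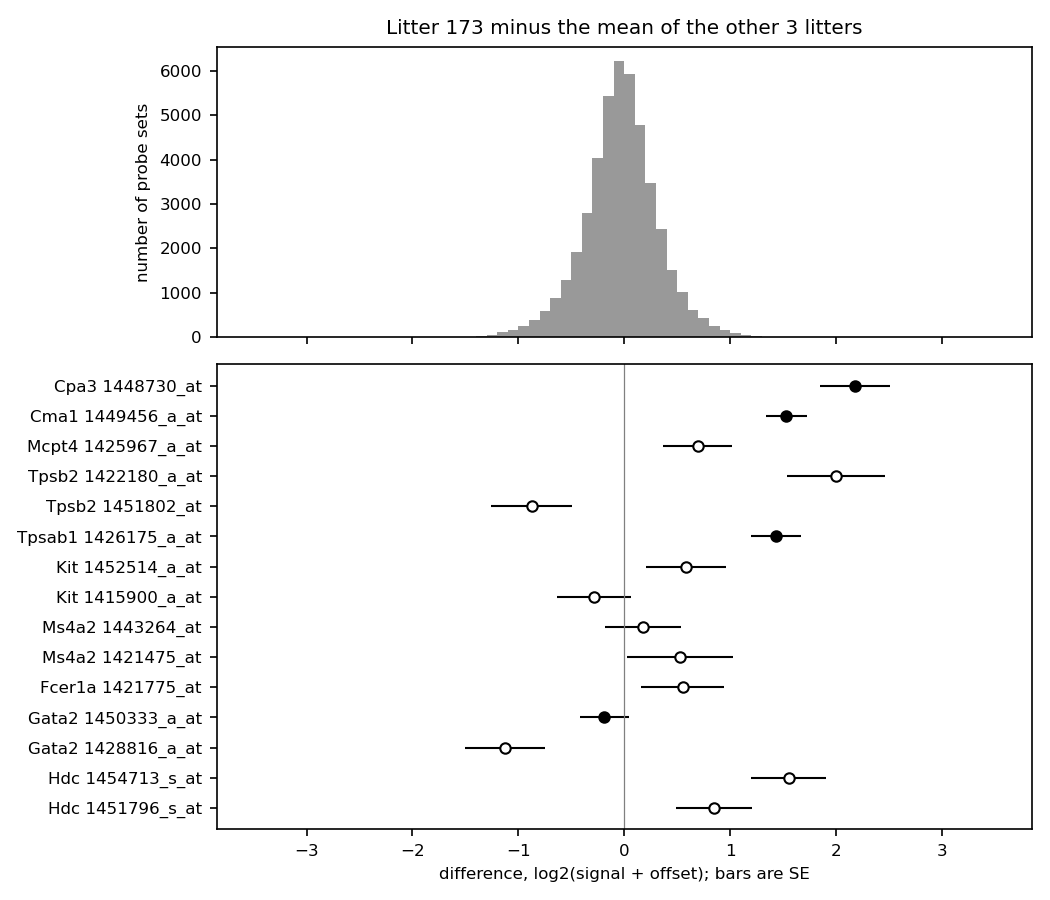
Difference between litter Mouse_173 and the mean of the other 3 litters on the log2(signal + 22.2) scale. The upper panel counts all 45037 probe sets by difference, and the lower panel gives the 15 mast cell probe sets with their SE, filled where they passed the filter. Cpa3, at 2.18, lies farthest to the right, and Gata2 (1428816_a_at) lies at -1.12.

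The profile of Cpa3 over the 8 arrays was compared with those of 10988 other tested genes by Pearson's correlation on the log2 scale, as a description. Both arrays of a litter come from embryos of that litter, so the 8 points are not independent. The genes most like Cpa3 were Asxl2 (r = 0.987), Dennd4c (0.983), Pcdh18 (0.983), C1qtnf9 (0.976), Slc33a1 (0.973), Myo5a (0.972), Matn2 (0.972), Elk4 (0.968), Eya4 (0.966) and Prkca (0.966), and no other mast cell gene was among them. Among all 45036 other probe sets, Tpsb2 (1422180_a_at) ranked 177 with r = 0.903, Cma1 ranked 554, Hdc (1454713_s_at) 577 and Tpsab1 621. Gata2 (1428816_a_at) ran against Cpa3, with r = -0.80. Fitted differences of the 10 genes for litter Mouse_173 lay between 0.23 and 0.69 log2, smaller than the 2.18 of Cpa3.

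Other genes of mast cell biology were taken as 5 lists of 39 genes, of which 33 had a probe set and 9 passed the filter. Of these 9, 1 was called across litters by limma, which is near the 9% of all tested probe sets. In the contrast of litter Mouse_173 0 were called, against 1.45% of tested probe sets higher and 1.34% lower. The called gene was Lat, an adaptor of Fc and T cell receptor signalling, which gave 293 in the transgenic and 109 in the control sample of litter Mouse_173, against 126 and 360.1 in litter Mouse_168, 19.8 and 19.6 in litter Mouse_170, and 256 and 209 in litter Mouse_174 (limma F-test, adjusted p = 0.013). Litter Mouse_170 was the low one there. Cd3g, the 1 lymphoid marker tested, gave 230 and 135 in litter Mouse_173 and 12.2 and 289 in litter Mouse_168, transgenic first. It gave 7.83 and 11.5 in litter Mouse_170, and 138 and 145 in litter Mouse_174. The part of lymphoid cells in the Lat signal was not tested. Of the 6 further protease genes 4 were measured and 0 passed the filter. Tpsg1 stood at 0.34 log2 for litter Mouse_173, Mcpt1 at 0.19, Mcpt2 at -0.36 and Ctsg, a protease also of neutrophils, at -0.38, with a median of -0.08. For none of the 4 were both samples of litter Mouse_173 above the other 6, and their summed signals were 176 in its transgenic and 40.5 in its control sample, against 85.0 to 148 elsewhere. Srgn, the core protein of the serglycin that binds granule proteases, gave 366 and 384 in litter Mouse_173 and between 187 and 343 elsewhere, a difference of 0.35 log2 (SE 0.19, limma adjusted p = 0.362). Both of its samples in litter Mouse_173 were above the other 6, but by a small margin. Ndst2, a heparin-synthesis enzyme, stood at 0.34 log2 for litter Mouse_173, Kitl, the ligand of Kit, at 0.25, the cytokine gene Il33 at 0.30, Plcg2, a phospholipase of receptor signalling, at 0.65, and Rab27b, which acts in granule release, at -0.19; none was called (limma, adjusted p between 0.123 and 0.641). Over the 33 genes both samples of litter Mouse_173 were above the other 6 for 5, against 5.2% of all probe sets, and 20 differences were positive, with a median of 0.20 log2.

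Marker lists for other cell types of the rib cage were set beside this, with the transgenic sample of litter Mouse_173 given before its control. Of all tested probe sets, 1.45% were called higher and 1.34% lower in the contrast of that litter. Summed macrophage markers (9 of 9 measured) came to 1888 and 2103 in litter Mouse_173, against 1264 to 2015 in the other samples. Of 6 tested, Mrc1 was called higher in litter Mouse_173, by 0.87 log2 (SE 0.20, limma adjusted p = 0.0382). The brightest, Csf1r and Cd14, stood at 0.62 and -0.23. Over the 9 macrophage markers 4 differences were positive, with a median of -0.01 log2. Fibroblast and perichondrium markers (7 of 7) summed to 120364 and 127998, against 101736 to 121253; Pdgfra was called higher, by 0.38 log2 (SE 0.09, adjusted p = 0.0466), and the brightest, Col3a1 and Postn, stood at 0.05 and 0.19. Erythroid and progenitor markers (7 of 9) summed to 4582 and 4536, against 4402 to 6692. Of these Alas2, which makes haem in red cells, was lower by -0.73 log2 (SE 0.10, adjusted p = 0.00497), and Cd34, found on progenitors, vessels and mast cells of mice, was higher by 0.64 log2 (SE 0.13, adjusted p = 0.0279). Neutrophil markers (8 of 8) summed to 2551 and 2625, against 1868 to 5629, with S100a9 lower by -0.52 log2 (SE 0.12, adjusted p = 0.0443) and S100a8 at 0.09. The part of these cells in the mast cell result was not tested.

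For the other lists few genes were called in the contrast of litter Mouse_173, where 1.45% of all tested probe sets were called higher and 1.34% lower. Mcpt8, the basophil protease, had 2.3 and 3.85 in litter Mouse_173, against 5.35 to 29.3 in the other samples, and was not tested. Melanocyte markers, which share Kit, summed to 308 and 206 in litter Mouse_173 (5 of 5 measured, 0 tested), against 152 to 401, with Pmel at -0.08 and Tyr at -0.21 log2. Endothelial markers, which share Gata2, summed to 1424 and 1974 (7 of 7), against 1064 to 1720, and 0 of 6 tested were called in the contrast, with Esam at 0.23 and Cdh5 at 0.40 log2. Lymphoid markers (6 of 7) summed to 540 and 249, against 125 to 733, with Cd3g at 1.29 log2, not called (limma adjusted p = 0.256), and Cd3d, not tested, at 0.90. Over the 6 lymphoid markers 3 differences were positive, with a median of -0.01 log2. Skeletal muscle markers (6 of 6) summed to 25943.5 and 24992.5, against 24420 to 36990.5, with Tnnt3 lower by -0.53 log2 (limma adjusted p = 0.00512) and Acta1 at -0.05. Keratinocyte markers (4 of 4) summed to 226 and 131, against 113 to 225, with Krt5 at 0.77 and Krt14 at -0.46 log2 and 0 tested. Adipocyte markers (2 of 4) summed to 3712 and 4463, against 2646 to 4299.8, with Fabp4 at 0.20 and Adipoq at -1.03 log2. Chondrocyte markers (8 of 8) summed to 197903 and 193530, against 182893 to 248329, with Col9a1 at -0.20 and Col2a1 at -0.17 log2, and 0 of 8 were called in the contrast.

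Genes outside these lists also moved with litter Mouse_173 and were picked after their values were seen. Hspa1b, a heat shock protein gene, averaged 9993 in litter Mouse_173, against 22633 in the other litters (-1.14 log2, SE 0.08, limma adjusted p = 0.000155), and the metallothionein gene Mt1 averaged 15309, against 27366 (-0.78 log2, adjusted p = 0.00111). The matrix genes Prelp and Tnc were higher in litter Mouse_173. Prelp averaged 6083, against 3803 (0.70 log2, limma adjusted p = 0.00241), and Tnc averaged 6463, against 3443 (0.92 log2, limma adjusted p = 0.00125). Of the fibroblast list, the matrix genes Dcn, Col3a1, Postn, Dpt and Col1a1 stood at -0.09, 0.05, 0.19, 0.28 and 0.39 log2. None of them was called, Col1a1 by a narrow margin. Litter Mouse_170 stood at the other end, with Hspa1b at 28284 in the transgenic and 30088 in the control sample. Their part in the mast cell result was not tested.

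**Figure D3:**
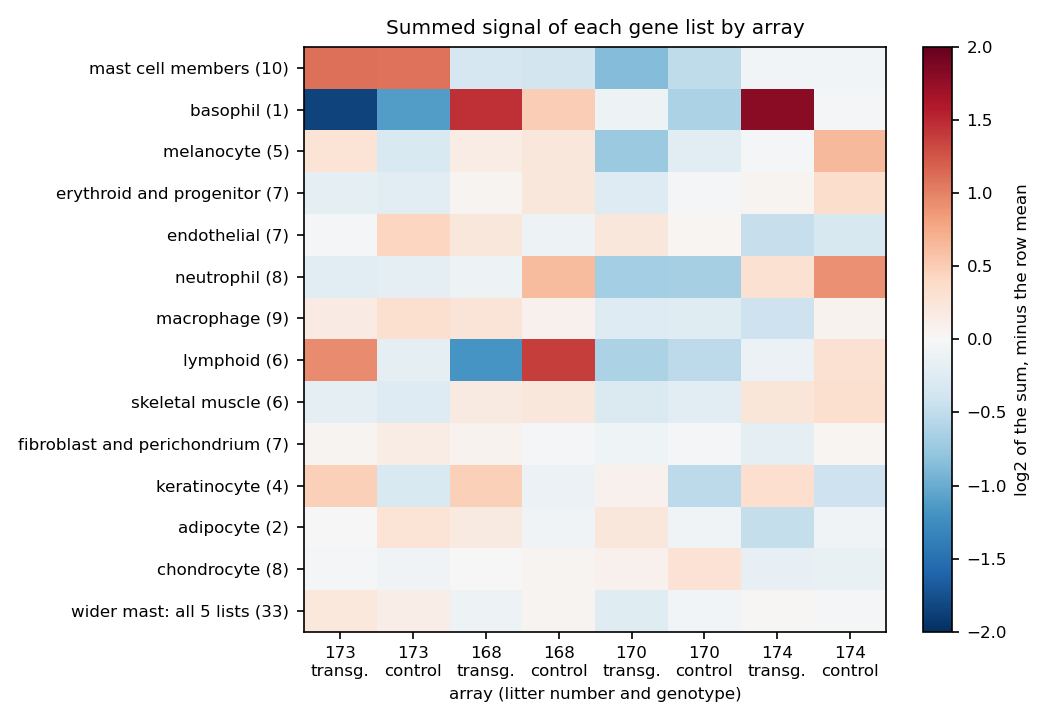
Summed signal of each gene list on each array as log2 of the sum minus the mean of its row, with the number of genes measured beside each list, transgenic left of control within each litter. The row of mast cell genes is highest in both samples of litter Mouse_173 and lowest in the transgenic sample of litter Mouse_170; the basophil row is Mcpt8 alone, at signals under 30.

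Between genotypes, which is the comparison the study was designed for, no mast cell gene differed beyond the spread of the samples. By limma 0 of the 4 tested probe sets were called, as were 0% of all 22519; none of the 4 had an unadjusted p under 0.05, against 1.09% of all. Cpa3 averaged 229.8 ± 195 in transgenic and 198 ± 219 in control samples (SD, n = 4 each), and the ranges overlapped. In the fit Cpa3 differed by 0.56 log2 (SE 0.66; 95% interval 0.544-fold to 3.97-fold) (limma, adjusted p = 0.9999). Cma1 averaged 259 ± 165 in transgenic and 265 ± 202 in control samples, a difference of 0.01 log2 (SE 0.42) with an interval from 0.536-fold to 1.89-fold. For Tpsab1 the means were 156 ± 117 in transgenic and 139.9 ± 88.3 in control samples, with an interval from 0.571-fold to 1.94-fold. In this fit the litters enter the spread, and the 3 intervals span values on both sides of no difference. With litter as a block the intervals narrowed, to -0.07 to 1.18 log2 for Cpa3, -0.35 to 0.38 for Cma1 and -0.37 to 0.52 for Tpsab1, and none was called (limma, adjusted p = 0.9998).

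Gata2 had lower signals in transgenic samples with its brighter probe set but did not pass the test. That probe set averaged 126 ± 22.1 in transgenic and 189 ± 64.2 in control samples (SD, n = 4 each), a difference of -0.48 log2 (SE 0.23), with an interval from 0.51-fold to 1.01-fold (limma, adjusted p = 0.9999). The transgenic sample was lower in 4 of 4 litters, by -0.80 log2 in litter Mouse_170, -0.61 in litter Mouse_174, -0.50 in litter Mouse_168 and -0.00 in litter Mouse_173, and the genotype ranges overlapped. With litter as a block its interval was -0.91 to -0.04 log2, its unadjusted p 0.0342 and its adjusted p 0.9998, and 3.34% of all tested probe sets had an unadjusted p under 0.05 in that fit. The dimmer probe set was lower in the transgenic samples of 3 litters and higher in litter Mouse_173, by 0.75 log2.

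Within litters, genotype differences of the dim probe sets went both ways. Over all 15 probe sets fitted without a filter, 6 differences were positive and 9 negative, with a median of -0.00 log2, against -0.01 over all probe sets, and 0 had an unadjusted p under 0.05 by limma, against 2.79% of all 45037 probe sets; with litter as a block 0 had one, against 3.93%. For 0 of the 15 did the genotypes separate, against 1.8% of all probe sets. The transgenic sample was lower in all 4 litters for 2 of them, Gata2 (1450333_a_at) and Ms4a2 (1443264_at), against 5.97% of all probe sets, and higher in all 4 for 0, against 5.46%. The widest gap was that of Tpsb2 (1422180_a_at) in litter Mouse_168, at 128 in the transgenic and 8.95 in the control sample, or 2.27 log2, while the same probe set stood at -0.12 log2 in litter Mouse_174. Cpa3 stood at 1.83 log2 in litter Mouse_170, 0.49 in litter Mouse_168, 0.03 in litter Mouse_173 and -0.12 in litter Mouse_174. Each litter has 1 sample of each genotype, so a difference within a litter has no replicate and was not tested.

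**Figure D4:**
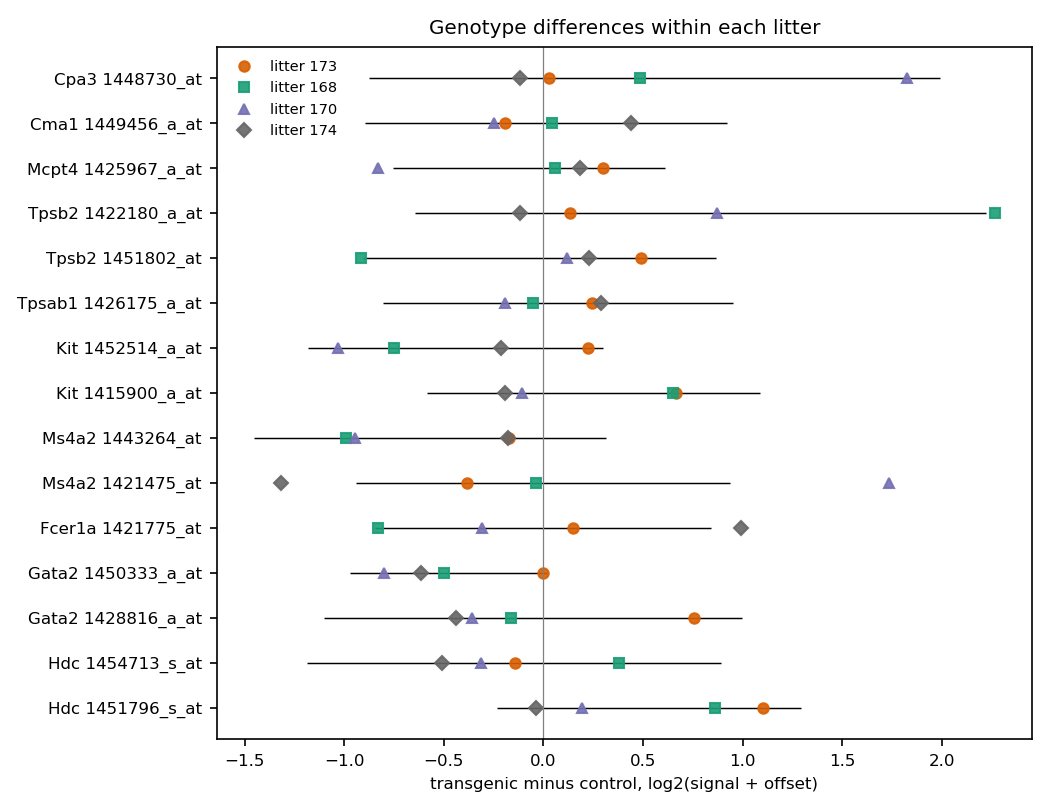
Transgenic minus control on the log2(signal + 22.2) scale for each mast cell probe set, with 1 symbol per litter and, as a line, the 95% interval from the fit that ignores litter. All 15 of these lines cross 0, while with litter as a block the interval of Gata2 (1450333_a_at) is -0.91 to -0.04. The points for Tpsb2 (1422180_a_at) and Cpa3 reach 2.27 and 1.83.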

How the data were processed

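Per the labels, biotin-labelled total RNA of rib chondrocytes was hybridised to 8 Affymetrix arrays. The deposited values are MAS5 intensity signals on a linear scale, per the submitters' processing notes; no MAS5 version is stated, and detection calls were not used. Of 45101 probe sets, 64 Affymetrix controls were left out. Genes were named through the platform annotation of 2016, in which 34945 probe sets have 1 symbol, 932 several and 9160 none; 34741 of the former were found by Entrez ID in RefSeq genes, GRCm38.p6.

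The 20th percentile of all values, 22.2, was added before taking log2, and probe sets with a mean of at least 110 were tested. Moderated two-sided tests of limma 3.58.1 under R 4.3.3, with a variance trend on intensity and Benjamini-Hochberg adjustment over 22519 probe sets at 0.05, compared genotypes without covariates, litters with genotype in the model by a moderated F-test, and each litter with the mean of the others. Steps were tested on simulated data. Where nothing says samples came from separate pools, p-values measure the spread between these samples; the number of arrays limits the precision.

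Named genes are the 10 members, called and 6 brightest genes of the wider lists, the 10 profiles most like Cpa3 and the 2 brightest markers of each other cell type; a few others are stated as picked later. The members and lists were chosen with earlier results of these data known. Litter numbers pair the samples per the labels: deviations of same-litter samples from their genotype means correlated at 0.376 in litter Mouse_173, 0.0251 in litter Mouse_168, 0.434 in litter Mouse_170 and 0.379 in litter Mouse_174. The control of litter Mouse_168 correlated at up to 0.0630 with a transgenic sample of another litter, so the signals do not bear out that pair. For the controls of the other litters such values reached at most 0.0303. Alternatives were litter as a block, offsets, filters, normalizations, variance settings and leaving out samples or litters.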

Additional observations from a re-analysis of the deposited data

Results flagged for a closer look

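For the 15 mast cell probe sets, 30 sets of 4 signals (1 per genotype) were examined for an extreme sample with Dixon's ratio at its 95% critical value. It was passed 4 times, where 30 independent sets would give about 1.5 by chance. These sets share arrays and genes that vary together, so the counts cannot be compared as a test. All 4 are samples of litter Mouse_173, whose signals are described above, and add no separate support. Mcpt4 was dim, with a mean of 16.7, and the control sample of litter Mouse_170 reached 31.8 for it. Cpa3 was 520.0 in the transgenic sample (next 164), Mcpt4 was 36.9 in the transgenic sample (next 9.94), Cma1 was 566 in the control sample (next 179) and Tpsab1 was 272 in the control sample (next 109.6).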

How the results depend on the processing

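Across 21 other fits 0 probe sets were called between genotypes by limma, and none of the mast cell probe sets was; with litter as a replicate block the adjusted p of the 4 tested was 0.9998 each, and the block changed no call. Leaving out samples or litters moved the genotype difference of Cpa3 between -0.11 and 1.19 log2, of Cma1 between -0.34 and 0.43, and of Tpsab1 between -0.32 and 0.40, so that their sign is not fixed; the lowest value for Cpa3 came without the control sample of litter Mouse_170. Cma1 also turned to -0.09, -0.19, -0.10, -0.02 and -0.13 without single samples or litter Mouse_174, and Tpsab1 to -0.06, -0.07 and -1.8e-05. The litter Mouse_173 difference stayed positive in every fit that could give it, between 1.59 and 2.53 log2 for Cpa3, 1.22 and 1.66 for Cma1 and 1.02 and 1.58 for Tpsab1; for Gata2 it lay between -0.51 and 0.13 when samples or litters were left out.

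Counts of calls depended on the settings. Across litters 2027 probe sets were called, 995 without the filter and 0 without an intensity trend; for the contrasts, 629 in litter Mouse_173, 1346 in litter Mouse_170, 1990 in litter Mouse_174 and 0 in litter Mouse_168 became 233, 705, 1154 and 0 without the filter and 0, 101, 0 and 0 without the trend, with unadjusted p under 0.05 for 4915 probe sets across litters in the fit without the trend. Litter Mouse_168 had 2 calls with median centring. The stricter filter removed all 3 called proteases and left 0. Leaving out samples or litters gave 546 to 3047 probe sets across litters, 13 to 1155 for litter Mouse_173, 0 to 18 for litter Mouse_168, 109 to 2184 for litter Mouse_170, 538 to 1752 for litter Mouse_174, and 0 to 3 mast cell probe sets in the F-test and in the contrast of litter Mouse_173. The cause of these shifts was not tested. Samples left alone in a litter were assumed to vary like the others. Of the 15 probe sets, 11 had a mean under the filter signal.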
